A study of Mus musculus with 6 samples.

Results

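Egr1 and Rgs2, a pair of genes known to respond to transcription factors of the CREB family, were followed in the presomitic mesoderm (PSM) of mouse embryos. They are 2 of the 10290 genes named in the deposited rows. Their probe sets were all those that the platform annotation assigns to exactly 1 of these symbols, 4 of 19551 without array controls. Egr1 had 1 probe set, 1417065_at, and Rgs2 had 3, namely 1419248_at, 1419247_at and 1447830_s_at. Both genes were chosen by their signals in mutant and control pools, which were already known. Their own differences between genotypes are therefore given as a description, with no test.

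The data were 6 expression arrays of whole-genome design, each hybridised with RNA of 1 pool of 3 dissected anterior PSMs from embryos of embryonic day 8.75 on the strain background given as C57BL6/6J. The mutant group comprised 3 pools of genotype R26R AC/AC;T-Cre, and the control group comprised 3 pools of genotype R26R AC/AC, so that all embryos carried the AC allele on both copies of the ROSA26 locus. In T-Cre embryos the T (Brachyury) promoter drives Cre recombinase in primitive streak cells and the mesoderm that leaves them. The labels do not spell out AC. What is known of the study makes it A-CREB, a dominant-negative protein that keeps CREB family factors off DNA and whose production starts where Cre has acted. No pool carried T-Cre without the AC allele, so the effect of Cre and that of AC cannot be told apart. The ROSA26 transcript Gt(ROSA)26Sor, which marks the modified locus, had a signal of 84.2 ± 18.8 in mutant pools and 682 ± 283 in control pools (SD, n = 3 each; log2 difference −2.92, SE 0.33, limma adjusted p = 0.003).

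CREB family factors are switched on by phosphorylation downstream of cyclic AMP, calcium or growth factor signals, and bind the cyclic AMP response element (CRE). Egr1 encodes a zinc-finger transcription factor and is an immediate early gene, which cells transcribe within minutes of a stimulus through serum response and CRE sites. Rgs2 encodes a regulator of G-protein signalling, a protein that speeds GTP hydrolysis on G alpha q subunits and so ends signalling from their receptors. PSM is the tissue that is cut into somites under the control of Notch, Wnt and FGF signals.

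Egr1 and Rgs2 differed in opposite directions. Egr1 signal was higher in mutant PSM, with 399 in pool 1, 379 in pool 2 and 333 in pool 3, against 77.5, 62.1 and 56.8 in control pools 1, 2 and 3. All mutant pools lay above all control pools, and the lowest mutant value was 4.30 times the highest control value. Mean signal was 370 ± 33.7 in mutant pools and 65.5 ± 10.8 in control pools (SD, n = 3 each). On the scale of log2(signal + 1) the difference, mutant minus control, was 2.49 (SE 0.20), a ratio of 5.62. This was the 7th largest positive difference among the 19551 probe sets. In these bulk pools, more Egr1-expressing cells and more Egr1 RNA per cell cannot be told apart, and the same holds for the lower values of Rgs2.

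The control signals of Egr1 lay near the dim end of the arrays, where the 5th percentile of all probe sets was 66.5 to 72.5 in mutant pools and 59.6 to 65.7 in control pools. The size of the ratio therefore depended on the constant added before the logarithm. With 16 in place of 1 the Egr1 difference was 2.25 (SE 0.18), and with 64 it was 1.75 (SE 0.13), a ratio of 3.36. Egr1 was higher in mutant under all 3 offsets. Its mean over the 6 arrays was below the 40th percentile of the table, so that a filter on dim probe sets at that level leaves Egr1 out.

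Rgs2 signal was lower in mutant PSM on each of its probe sets. The brightest one, 1419248_at, read 341, 347 and 260 in mutant pools 1, 2 and 3, against 498, 450 and 442 in control pools 1, 2 and 3. The genotypes did not overlap on it. Mean signal was 316 ± 48.6 in mutant pools and 463 ± 30.5 in control pools (SD, n = 3 each), a log2 difference of −0.56 (SE 0.17) and a ratio of 0.678.

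The second Rgs2 probe set, 1419247_at, which was designed from the same GenBank record, read 207, 245 and 111 in mutant pools 1, 2 and 3, against 266, 257 and 256 in control pools 1, 2 and 3. The control pools were close together, mutant pool 2 was just below them, and mutant pool 3 was far below. Its log2 difference was −0.54 (SE 0.27), and −0.21 without mutant pool 3. The remaining probe set, 1447830_s_at, is of a kind (_s_at) that can also detect other transcripts. It read 223, 213 and 131 in mutant pools 1, 2 and 3, against 265, 219 and 226 in control pools 1, 2 and 3. Here the genotypes overlapped, since mutant pool 1 lay above control pool 2, and the log2 difference of −0.36 (SE 0.23) was −0.11 without mutant pool 3.

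Of the 4 probe sets of Egr1 and Rgs2, 3 had no overlap between genotypes, as did 19.1% of all probe sets, with 10.9% higher and 8.19% lower in mutant. Mutant pool 3 had the lowest signal of all 6 arrays on each Rgs2 probe set, at −0.55, −0.94 and −0.67 log2 units from the mean of 1419248_at, 1419247_at and 1447830_s_at. It was also the mutant pool with the lowest Egr1. Without it, Egr1 had a difference of 2.56 and 1419248_at one of −0.43. With larger offsets Rgs2 changed little, with −0.54 and −0.48 on 1419248_at for offsets of 16 and 64.

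**Figure D1:**
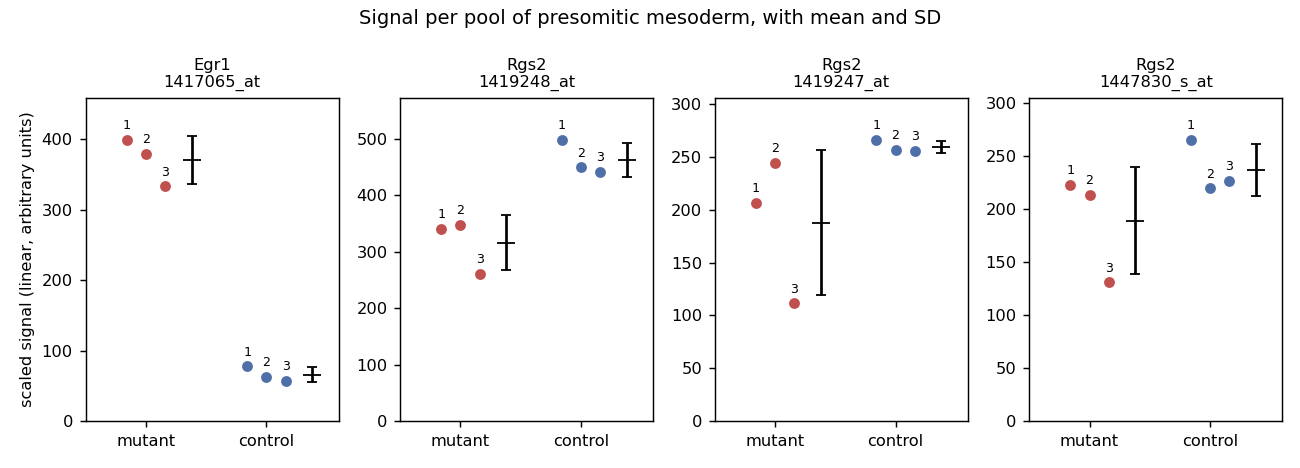
Scaled signal (vertical axis, linear, from 0) of the Egr1 probe set and the 3 Rgs2 probe sets in the 3 mutant and 3 control pools. Points are pools with their number, and bars give the mean and SD. Egr1 lies between 333 and 399 in mutant pools and between 56.8 and 77.5 in control pools, and mutant pool 3 is the lowest point of every Rgs2 panel.

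**Figure D2:**
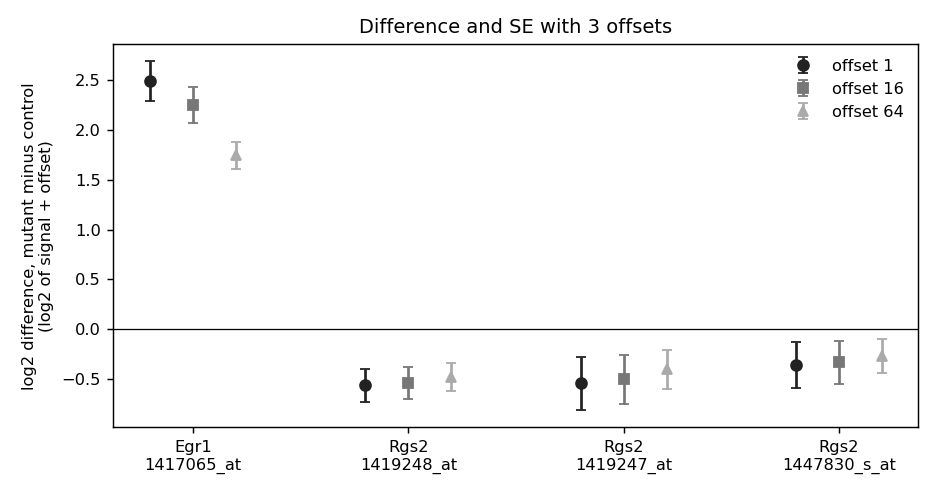
Log2 difference, mutant minus control (vertical axis), of each probe set with its SE, after adding 1, 16 or 64 to the signal. Egr1 shrinks from 2.49 to 1.75 as the offset grows, while 1419248_at of Rgs2 stays between −0.56 and −0.48.

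The arrays differed in the 3' to 5' signal ratio of the dap spike-in transcript, which was 23.8, 19.6 and 10.2 in mutant pools 1, 2 and 3 and 22.9, 12.2 and 11.1 in control pools 1, 2 and 3. A ratio above 15 thus joined mutant pools 1 and 2 with control pool 1. Egr1 had a difference of 2.31 within these arrays and 2.47 within the other 3, each resting on 1 pool of 1 genotype. The same values for Rgs2 were −0.53 and −0.77 on 1419248_at, −0.24 and −1.20 on 1419247_at, and −0.28 and −0.76 on 1447830_s_at. Every Rgs2 difference was therefore more negative in the set that holds mutant pool 3. With the ratio set as a term in the model, Egr1 had 2.39 (SE 0.20) and 1419248_at −0.65 (SE 0.15).

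The upstream sequence of Rgs2 was examined because CREB binds a short DNA element. The full CRE is the palindrome TGACGTCA, and its half-site is TGACG, which reads CGTCA on the opposite strand. In RefSeq's promoter windows (build GRCm38.p6, 250 bases before to 50 after a transcript start), no window was found for Egr1. Egr1 was therefore not searched for these motifs. The window of Rgs2, chr1:144004100-144004399 on the minus strand, held half-sites that begin 185 and 67 bases before the start, on opposite strands, and no full palindrome. It is printed beside the windows of Btg2 and Dusp1 (chr1:134079106-134079405 and chr17:26508423-26508722, both minus strand), measured genes of the CREB-responsive list whose windows hold the palindrome 166 and 143 bases before the start. Capitals mark the half-site on either strand, so that a full palindrome appears as 8 capitals, and each sequence reads 5′ to 3′ towards the gene.
Rgs2: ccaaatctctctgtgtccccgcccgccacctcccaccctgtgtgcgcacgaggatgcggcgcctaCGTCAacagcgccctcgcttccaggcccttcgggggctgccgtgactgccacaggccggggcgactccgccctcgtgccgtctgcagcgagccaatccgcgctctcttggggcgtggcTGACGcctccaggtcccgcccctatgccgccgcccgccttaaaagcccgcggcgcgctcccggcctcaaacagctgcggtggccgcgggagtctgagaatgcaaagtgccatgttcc
Btg2: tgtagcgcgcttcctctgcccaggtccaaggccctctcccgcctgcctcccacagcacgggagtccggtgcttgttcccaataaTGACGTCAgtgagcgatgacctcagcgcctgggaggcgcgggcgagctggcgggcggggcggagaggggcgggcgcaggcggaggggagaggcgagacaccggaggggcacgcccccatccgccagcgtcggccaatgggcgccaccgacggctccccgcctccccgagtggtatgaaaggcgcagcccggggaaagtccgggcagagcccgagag
Dusp1: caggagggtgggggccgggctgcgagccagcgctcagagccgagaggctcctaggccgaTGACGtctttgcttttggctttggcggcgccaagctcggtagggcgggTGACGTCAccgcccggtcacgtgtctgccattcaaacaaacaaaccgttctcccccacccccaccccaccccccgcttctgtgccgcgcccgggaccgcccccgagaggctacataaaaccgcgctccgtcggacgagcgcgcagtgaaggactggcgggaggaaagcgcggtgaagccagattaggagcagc

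Searched on both strands, the half-site occurred in 20.8% of the 32851 windows of all genes, and the palindrome, which contains overlapping half-sites, in 1.79%. Of the CREB-responsive list's measured genes, 16 had windows in the table, 22 in all. Of these 22 windows, 15 held the half-site and 4 the palindrome. These letters describe the windows and do not show binding. Btg2, an antiproliferative gene, read 1070, 994 and 571 in mutant pools 1, 2 and 3 and 700, 490 and 468 in control pools 1, 2 and 3, with overlap between genotypes (log2 difference 0.64, SE 0.25, limma adjusted p = 0.308). Dusp1, a phosphatase that inactivates MAP kinases, read 385, 324 and 276 in mutant pools and 382, 353 and 312 in control pools (−0.10, SE 0.18, limma adjusted p = 0.861). Maff and Pcsk1, the other measured list genes with a palindrome window, are not printed. They had −0.15 (SE 0.17) and 0.12 (SE 0.31), with limma adjusted p values of 0.772 and 0.91.

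To set Egr1 and Rgs2 beside other genes of the same kind, further lists were read from the limma fit over all 19551 probe sets, with 1 probe set per gene. In that fit 0.807% of 10290 genes were called at an adjusted p under 0.05, 0.34% higher and 0.466% lower. An unadjusted p under 0.05 was found for 14.6% of them, 7.84% higher and 6.72% lower, and each list's count is to be read against that share. Of 42 other CREB-responsive genes, 24 had a probe set among the deposited rows, and 0 of these were called in either direction. An unadjusted p under 0.05 was found for 1 higher gene (Btg2) and 0 lower genes, 1 of 24 against 14.6% over all genes. Fos, Fosb, Junb, Nr4a3 and Areg were among the 18 genes without a probe set, so the 0 calls do not cover them. The median log2 difference of the 24 genes was −0.05, against 0.02 over all genes, with 11 positive and 13 negative values between −0.38 and 0.64. The lowest unadjusted p values after Btg2 belonged to Cited2, a CBP/p300-binding coregulator (−0.29, SE 0.14), Pde4b, a cyclic AMP phosphodiesterase (0.38, SE 0.19), and Mcl1, a survival gene of the BCL2 family (−0.22, SE 0.12). Their limma adjusted p values were 0.428, 0.446 and 0.463.

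Nr4a1, an orphan nuclear receptor gene and a classical CREB target, read 132, 132 and 161 in mutant pools and 109, 186 and 155 in control pools (−0.05, SE 0.23), and was named after its values were seen. Sik1, a kinase that restrains CREB coactivators, read 192, 198 and 188 in mutant pools and 225, 218 and 301 in control pools (−0.35, SE 0.18, limma adjusted p = 0.473), and was also named after its values were seen. Its genotypes did not overlap, as was so for 2 of the 24 genes, both lower in mutant, against 9.49% lower over all genes. With array quality weights, 1 gene of the list was called, Btg2 (0.89, limma adjusted p = 0.0233), while these weights called 5.43% of all genes. The spike-in ratio block gave Btg2 a smaller difference, 0.41. Egr1, at 2.49, lay outside the range of the 24 genes, and so did 1419248_at of Rgs2, at −0.56. The Rgs2 probe set 1447830_s_at, at −0.36, lay inside it. Without mutant pool 3, 1419248_at had −0.43 and Cited2 had −0.44, so that 1419248_at was then no longer below all 24 genes. Egr1 and Rgs2 were chosen by their signals in these pools, so these places are no test.

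Egr1 is also an immediate early gene, and 19 of 30 others of that class had a probe set among the deposited rows. Fos, Fosb, Fosl1, Junb, Egr2, Egr3 and Egr4 were among the 11 without one, so their levels are not known here. Limma called 0 of the 19 measured genes, with an unadjusted p under 0.05 for 3 higher genes and 1 lower gene. These were 4 of 19 against 14.6% over all genes, and the median of the 19 genes was −0.05. The 3 higher genes include Btg2, which the CREB-responsive list also holds. Dusp5, an ERK phosphatase, had 0.61 (SE 0.22), Klf10, a Krüppel-like repressor, 0.39 (SE 0.14), and Fosl2, an AP-1 subunit, −0.58 (SE 0.26), with limma adjusted p values of 0.277, 0.286 and 0.387. Fosl2 was close to the dim end of the arrays, at 84.5, 71.5 and 46.0 in mutant pools and 97.1, 100.02 and 96.6 in control pools, and its difference was −0.31 with an offset of 64 and −0.33 without mutant pool 3. Jun, an AP-1 subunit named after its values were seen, read 699, 354 and 441 in mutant pools against 328, 525 and 400 in control pools, and the genotypes overlapped. Of 10 measured heat shock genes, a sign of handling, 0 were called, with 0 at an unadjusted p under 0.05 (14.6% over all genes), and their median was 0.03. The summed signal of these 10 genes was 107233 to 124265 in mutant pools and 104965 to 121547 in control pools. Far brighter genes hold most of this sum, so it says little about Hspa1b, a dimmer gene of the list. Hspa1b read 562, 677 and 257 in mutant pools and 306, 537 and 298 in control pools (0.33, SE 0.35, limma adjusted p = 0.741).

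Of the EGR family and its corepressors, 1 of 6 listed genes had a probe set among the deposited rows, Nab1. Egr2, Egr3, Egr4, Wt1 and Nab2 had none there, which does not show that the array lacks them. Nab1, which binds EGR proteins and represses them, had 0.23 (SE 0.14, limma adjusted p = 0.525). Its signal was 758, 816 and 802 in mutant pools and 709, 734 and 593 in control pools. Among genes known as EGR1 targets, 8 of 16 were measured, and limma called 1 higher and 0 lower. The called gene was Cdkn1a, a cyclin-dependent kinase inhibitor that p53 also induces (2.52, SE 0.14, limma adjusted p = 4.02e-05). In the same fit 3 higher genes and 0 lower genes had an unadjusted p under 0.05, 3 of 8 against 14.6% over all genes. The median of the 8 genes was 0.11, with 6 positive and 2 negative values. Pdgfa, a growth factor gene, read 4727, 4905 and 5021 in mutant pools and 2892, 3563 and 3618 in control pools (0.55, SE 0.11, limma adjusted p = 0.0713). It was called with the spike-in ratio block (0.61, limma adjusted p = 0.0027) and with array quality weights (0.46, limma adjusted p = 0.0203). These weights called 5.43% of all genes. Bbc3, a cell death gene that p53 induces as well, had 0.74 (SE 0.24, limma adjusted p = 0.226), and was called with the ratio block (0.90, limma adjusted p = 0.0244), under which 4.19% of all genes were called. Without control pool 1 it had 0.47. The other named genes of the list were Fn1, fibronectin, −0.36 (SE 0.18, adjusted p = 0.436), and Igf2, a growth factor gene, −0.28 (SE 0.19, adjusted p = 0.582).

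In the pathway that feeds Egr1 through ERK and serum response factor, 21 of 30 genes were measured and limma called 0, with an unadjusted p under 0.05 for 1 higher gene and 4 lower genes, 5 of 21 against 14.6% over all genes. The list's median was −0.15, with 14 negative and 7 positive values, while 47.1% of all genes had a negative value. Etv5, an ETS factor and FGF target, read 2294, 2581 and 3290 in mutant pools and 3916, 3461 and 3936 in control pools (−0.48, SE 0.14, limma adjusted p = 0.176). It was called without mutant pool 3 (−0.63, limma adjusted p = 0.0492) and with array quality weights (−0.55, limma adjusted p = 0.0244). Nras, a RAS GTPase, had −0.43 (SE 0.14, adjusted p = 0.218), Elk4, a partner of serum response factor, −0.34 (SE 0.12, adjusted p = 0.289), and Spred2, an ERK pathway inhibitor, −0.46 (SE 0.17, adjusted p = 0.291). Array quality weights also called Nras (−0.47, limma adjusted p = 0.0432) and Spred2 (−0.56, limma adjusted p = 0.0379). These weights called 5.43% of all genes. The 1 higher gene was Spry2, an inhibitor of FGF signalling to ERK, at 1418, 1671 and 1413 in mutant pools and 1023, 1131 and 1373 in control pools, without overlap (0.36, SE 0.14, limma adjusted p = 0.334). It was named after its values were seen.

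Among 22 other genes with an RGS domain, 9 were measured and limma called 0, with an unadjusted p under 0.05 for 1 higher and 1 lower gene, 2 of 9 against 14.6% over all genes. Rgs17, which acts on inhibitory G alpha subunits, read 95.1, 97.8 and 97.6 in mutant pools and 48.2, 65.0 and 74.8 in control pools, without overlap (0.64, SE 0.23, limma adjusted p = 0.284). These signals lay close to the dim end of the arrays, as those of Egr1 did in control pools, and with an offset of 64 the difference was 0.35. Rgs5, a vascular and pericyte gene, read 350, 397 and 384 in mutant pools and 378, 568 and 616 in control pools (−0.44, SE 0.19, limma adjusted p = 0.384). Of the alternatives run, array quality weights alone called it (−0.63, adjusted p = 0.0416), with 5.43% of all genes called. Rgs12 had −0.36 (SE 0.27, adjusted p = 0.626), and Axin2, a Wnt feedback inhibitor with an RGS domain, −0.22 (SE 0.18, adjusted p = 0.651). With 1 array left out, Rgs12 ranged from −0.64 to −0.16 and Axin2 from −0.39 to −0.07. The median of the 9 was −0.10, with a range from −0.44 to 0.64. On 1419248_at Rgs2 had −0.56, below each of them, while on 1447830_s_at it had −0.36, above Rgs5. With array quality weights 1419248_at had −0.47, above the −0.63 of Rgs5. The difference between Rgs2 and the other genes was not tested.

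Of the G-protein and phospholipase C beta genes through which Rgs2 acts, 20 of 24 were measured and limma called 0, with an unadjusted p under 0.05 for 1 lower gene, 1 of 20 against 14.6% over all genes, and a median of 0.04. That gene was Gnb5, a beta subunit that pairs with another group of RGS proteins, at 223, 260 and 227 in mutant pools and 327, 322 and 325 in control pools (−0.46, SE 0.16, limma adjusted p = 0.253). Gnaq, the alpha subunit on which Rgs2 acts, had 0.10 (SE 0.12), and was named for that role and not by its values. Of 20 measured genes of cyclic AMP synthesis, breakdown and its kinase, 0 were called, 0 higher and 1 lower had an unadjusted p under 0.05 (14.6% over all genes), and the median was 0.05. Prkar1a, a regulatory subunit of protein kinase A, had −0.29 (SE 0.11, limma adjusted p = 0.324).

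Of the CREB family and its coactivators, 9 of 12 were measured and 0 were called, with 1 lower gene at an unadjusted p under 0.05 (1 of 9, against 14.6% over all genes) and a median of 0.09. That gene was Atf2, which binds CRE-like sites (−0.27, SE 0.10, limma adjusted p = 0.284). Creb1 itself read 2987 ± 288 in mutant pools and 2707 ± 75.4 in control pools (SD, n = 3 each; 0.14, SE 0.11, limma adjusted p = 0.649). Crem, whose transcripts include a CREB-induced repressor, had 0.27 (SE 0.23, adjusted p = 0.662, named after its values were seen).

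**Figure D3:**
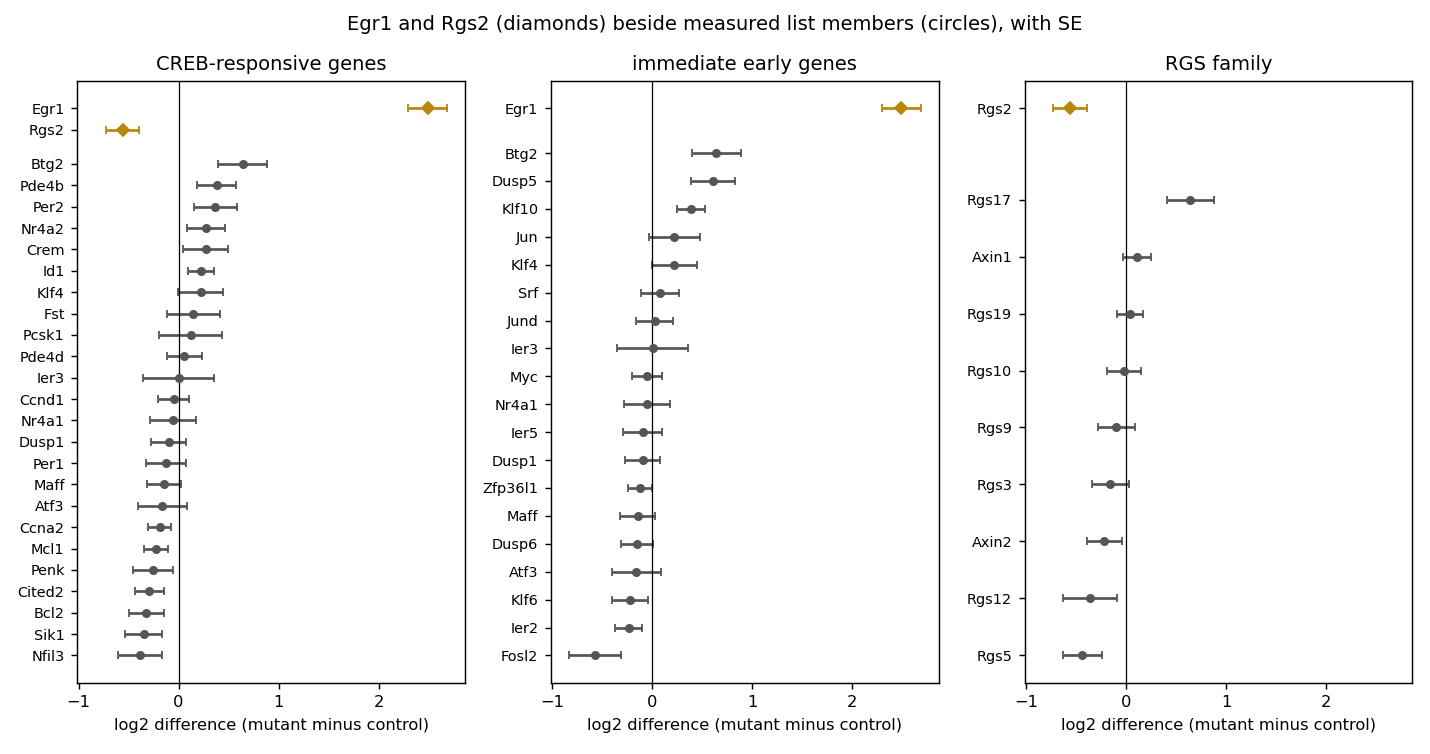
Log2 difference, mutant minus control (horizontal axis), with its SE, of the measured CREB-responsive genes (24), immediate early genes (19) and RGS family genes (9) as circles, and of Egr1 and 1419248_at of Rgs2 as diamonds. The circles run from −0.58 to 0.64, Egr1 stands at 2.49, and Rgs2 at −0.56 lies below the circles of the CREB-responsive and RGS panels. Egr1 and Rgs2 were chosen by their signals in these pools, so their places beside the circles are no test.

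The genes most like Egr1 and Rgs2 were found by the root mean square difference between profiles of the 6 log2 values, each centred on its own mean, among 9956 other named genes. For Egr1 they were Ccng1, which encodes cyclin G1 (0.13 log2 units), Eda2r, a receptor for ectodysplasin A2 (0.14), Trp53inp1, a p53-induced nuclear protein gene (0.15), Cdkn1a (0.18) and Slc19a2, a thiamine transporter gene (0.21). Ccng1 read 9349, 10023 and 8560 in mutant pools and 1955, 1830 and 1760 in control pools, a log2 difference of 2.33. Eda2r read 779, 958 and 733 in mutant pools and 148, 133 and 135 in control pools, a difference of 2.55. As in Egr1, all 3 mutant values of these genes stood far above all 3 control values, which follows from their choice by profile.

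For Rgs2 the most alike were Nudt19, a nudix hydrolase gene (0.049 log2 units), Plekhh1 (0.081), Mrpl2, a mitochondrial ribosomal protein gene (0.087), Ctu2, a tRNA thiolation gene (0.093), and Ncapg2, a condensin subunit gene (0.097). Nudt19 read 1254, 1218 and 1008 in mutant pools and 1859, 1583 and 1644 in control pools, a difference of −0.55 (SE 0.13). In all 5 of these genes mutant pool 3 was the lowest array, as in Rgs2, and their differences lay between −0.61 and −0.49. Both features follow from their choice by likeness to Rgs2. These likenesses describe 6 arrays that each gene shares, and rest mostly on the split between genotypes.

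**Figure D4:**
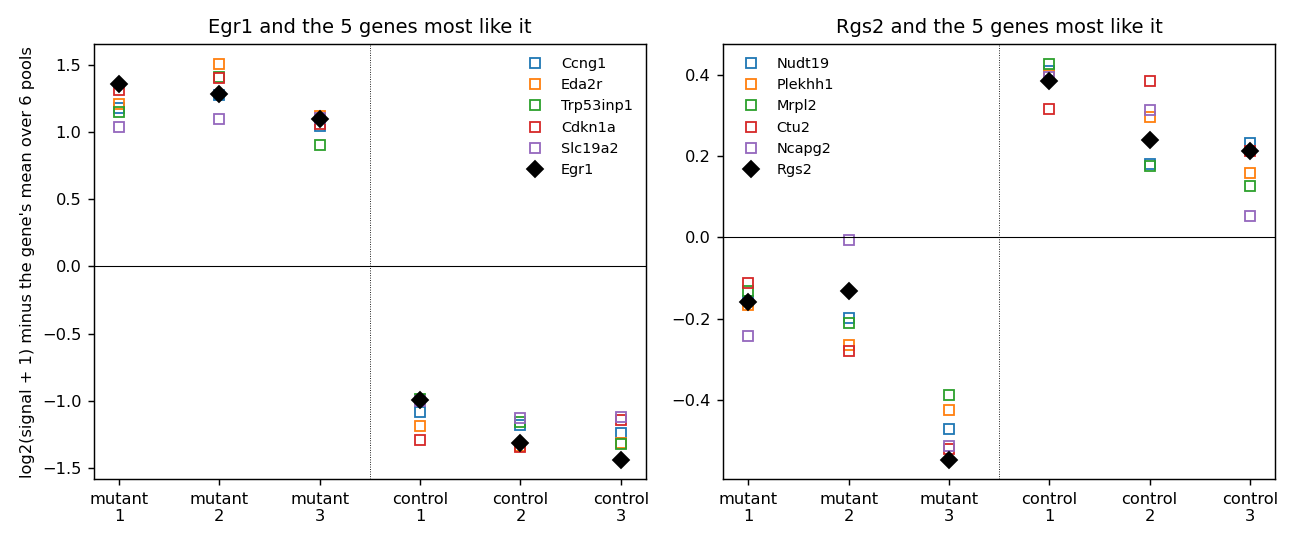
Log2(signal + 1) minus the gene's own mean (vertical axis) in the 3 mutant and 3 control pools (horizontal axis), for Egr1 and Rgs2 (diamonds) and the 5 genes most like each (open squares). Each Egr1 panel gene is high in all mutant pools and low in all control pools, and in the Rgs2 panel mutant pool 3 holds the lowest value of every gene.

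Markers of PSM and of neighbouring tissues were summed in each pool, and are given with no test of the sums. Of 15 PSM markers, 14 were measured, and 9 of these lay above the array's median signal on all 6 arrays. Their summed signal was 15874 to 24613 in mutant pools and 25541 to 27026 in control pools, with a median difference of −0.44. Sums of 10 surface ectoderm markers were higher in mutant pools, at 29342.5 to 32052 against 21719 to 24523 in control pools (median 0.62). Sums of 10 gut endoderm markers were 11604 to 26114 in mutant pools and 7336 to 11729 in control pools (median 0.49, ranges overlapping). The highest of these sums, in mutant pool 1, includes 11528 from Ttr, a transthyretin gene, while Sox17, an endoderm transcription factor gene that endothelium also expresses, was lower in mutant (−1.06, SE 0.20, limma adjusted p = 0.0492). That call was lost without the intensity trend (limma adjusted p = 0.101), with the filter on dim probe sets (0.0507) and without control pool 2 (0.181), control pool 3 (0.142), mutant pool 1 (0.162) or mutant pool 2 (0.173). The other 9 gut endoderm markers had positive differences. In the main fit limma called 1 of them higher, Epcam (0.60, SE 0.11, limma adjusted p = 0.04). Epcam and Cldn6 are in both the gut endoderm and the surface ectoderm list.

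Sums of 8 endothelial markers were lower, at 5980 to 8725 in mutant pools against 10525 to 11394 in control pools (median −0.56), and those of 8 lateral mesoderm markers were 4577 to 5522 in mutant pools against 7194 to 7658 in control pools (median −0.30). Aplnr holds most of the endothelial sums, with means of 4711 in mutant and 7629 in control pools. Of the 8 endothelial markers 7 were negative and 1 positive, Emcn (0.77, SE 0.19, limma adjusted p = 0.123). The lateral mesoderm markers had 5 negative and 3 positive differences. Sums of 8 blood markers were 46663 to 64304 in mutant pools and 34370 to 47088 in control pools (median 0.49). Globin genes hold most of the blood sums, and Tal1, a blood and endothelial transcription factor gene, had −0.74 (SE 0.23, limma adjusted p = 0.201), without overlap between genotypes. Sums of 8 neural tube markers were 8152 to 11231 in mutant pools and 7673 to 10697 in control pools (median 0.36). Within the arrays with a spike-in ratio above 15 and within the other 3, the median difference was −0.68 and −0.10 for PSM markers and 0.71 and 0.02 for blood markers. The same medians were 0.80 and 0.53 for surface ectoderm, 0.56 and 0.54 for gut endoderm, −0.38 and −0.56 for endothelium, −0.30 and −0.65 for lateral mesoderm, and 0.50 and 0.26 for neural tube. Limma called lower 1 of 14 PSM, 1 of 8 endothelial and 3 of 8 lateral mesoderm markers. It called 2 of 10 surface ectoderm markers higher and 0 blood or neural tube markers. The share called over all genes was 0.807% in either direction. None of these markers was listed at 0 on any array, and their part in the values of Egr1 and Rgs2 was not tested.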

How the data were processed

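RNA of 3 mutant and 3 control pools was measured on 1 array each. The authors deposited 1 linear intensity per probe set and array, made with Affymetrix Expression Console and MAS5 per the submitters' processing notes. The scaling target, tool versions and the choice of the 19606 rows are not given in the sources used here. Of these rows 55 were array controls and were left out. Of the other 19551, the platform annotation gave 17348 exactly 1 symbol and 494 several, and 1709 were not named. The authors' scaling was kept, and medians per array lay between 491 and 535. Pools are called biological replicates in the labels.

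Values were analysed as log2(signal + 1), with no filter on dim probe sets. Genotypes were compared by limma 3.58.1 in R 4.3.3, with empirical Bayes moderation and an intensity trend, two-sided, and p was adjusted by Benjamini-Hochberg over all 19551 probe sets, with a threshold of 0.05. The code was tested on simulated data. A gene was represented by its probe set with the highest mean log2 signal. By rule, named genes were the probe sets of Egr1 and Rgs2, called genes of each list with up to 4 others of smallest p, the 5 genes of most alike profile, Gt(ROSA)26Sor and Creb1. Outside this rule, Nr4a1, Sik1, Jun, Spry2 and Crem were named after their values were seen. Gnaq was named for its role, and Dusp1, Maff and Pcsk1 for their promoter windows. Rik, Gm, LOC and clone symbols were not named. Marker lists were given as sums, medians and counts called, and of their genes Sox17, Ttr, Tal1, Epcam, Cldn6, Aplnr and Emcn alone were named. The genes, lists, spike-in ratio split and tests were chosen with earlier results of these data known. Alternatives were offsets of 16 and 64, quantile normalization, median centring, a filter at the 40th percentile, no trend, array weights, a replicate block, a block for the spike-in ratio, leaving out each array, no _x_at or _s_at probe sets and averaging the probe sets of a gene. No array was dropped from the values reported, and the number of arrays limits the precision.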

Additional observations from a re-analysis of the deposited data

How the results depend on the processing

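Egr1 was higher and each Rgs2 probe set lower in mutant under every alternative that gave a value. Egr1 ranged from 1.75 to 2.64 on the log2 scale, with its lowest values at offsets of 64 (1.75) and 16 (2.25), and from 2.40 to 2.62 with 1 array left out. Rgs2 (1419248_at) ranged from −0.65 to −0.43, with −0.63 to −0.43 when 1 array was left out and −0.49 as the mean of its 3 probe sets. The filter at the 40th percentile gave no value for Egr1 or for the dimmer Rgs2 probe sets. Of all probe sets, 47 were called higher and 62 lower. These counts were 29 higher with the filter, 25 and 22 without the intensity trend, 469 and 433 with array quality weights, and 341 and 339 with a block for the spike-in ratio. The causes were not tested. Leaving out 1 array gave 19 to 100 higher and 14 to 106 lower, the fewest without mutant pool 1 and the most without mutant pool 3. With the replicate block, 113 were higher and 105 lower, and the differences of Egr1 (2.49, SE 0.21) and Rgs2 (−0.56, SE 0.18) were the same by construction. Equal replicate numbers had residual correlations of 0.18, −0.27 and 0.27, and 2 of 6 arrays correlated best with the array of equal number, so no pairing was assumed. Array quality weights gave 1 call each among CREB-responsive and immediate early genes (Btg2 in both) and RGS family genes (Rgs5), against 0, 3 among ERK pathway genes (Etv5, Nras and Spred2), against 0, and 2 among EGR1 targets, against 1 (with Pdgfa). The spike-in ratio block gave 3 among EGR1 targets (with Pdgfa and Bbc3). Of all genes, the weights called 5.43% and the ratio block 4.19%, against 0.807% in the main fit. Leaving out 1 array gave 0 to 1 call among ERK pathway genes (Etv5 without mutant pool 3). With the ratio block, the differences of several list genes that were not called moved nearer to 0 by over 1.5 times. Among them were Cited2 (−0.18), Fn1 (−0.21), Igf2 (−0.09), Rgs12 (−0.12) and Axin2 (−0.08). Dnajb1, a heat shock gene that was not called, had 0.17 with all arrays and −0.0095 to 0.36 with 1 array left out, negative without mutant pool 2. Signals close to the dim end of the arrays limit the ratio of Egr1.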
